A study of Mus musculus with 7 samples.

Results

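The genes described here are the numbered Gpr genes of the mouse, a nomenclature set of G protein-coupled receptors and related proteins, most of them named before a ligand was known. Members were the rows of the gene table whose symbol was Gpr followed by a number alone, with Gpr17 left out, which gave 91 of 36666 genes. They were compared between cerebral cortex of young adult C57BL/6 mice (3 samples) and cerebral cortex of C57BL/6 embryos at embryonic day 17 (4 samples). The labels name 1 strain for all 7 samples and no transgene or treatment, and mRNA of the whole tissue was sequenced, with all its cell types. Reads in genes ranged from 22734208 to 23606525 in adult samples and from 18444273 to 22575951 in embryonic samples.

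A G protein-coupled receptor spans the membrane with its helices and, once bound by a ligand, loads a heterotrimeric G protein with GTP, after which the alpha subunit and the beta-gamma pair act on adenylyl cyclases, phospholipases and channels. RGS proteins end the signal by speeding GTP hydrolysis, and receptor kinases with arrestins silence the receptor itself. The Gpr symbols cut across receptor classes. They include rhodopsin-like class A receptors and the adhesion receptors, many of which have long extracellular parts. Others are class C receptors related to the GABA-B and metabotropic glutamate receptors, or intracellular proteins with a similar membrane topology. In brain, members are known in neurons, microglia, oligodendrocytes, vessels and progenitors.

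More numbered Gpr genes were higher in adult than in embryonic cortex than were lower. Levels are given as reads per 1000000 reads in genes (CPM), with mean ± SD, and differences as adult minus embryonic on the deposited variance-stabilized scale, where 1 unit is close to a 2-fold change at high read numbers and less than 1 unit marks a 2-fold change at low ones. Of the 91 members, 81 had reads in enough samples to be tested and 10 did not, with at most 5 reads in any sample. Among the 81 tested, 47 were higher in adult cortex, 15 were lower and 19 were not called (limma, Benjamini-Hochberg adjusted p under 0.05). That is 76.5% called, against 69.7% of all 22828 genes tested, so the share called was near the background. The directions were 58.0% higher and 18.5% lower among tested members, against 35.8% higher and 33.9% lower among all genes tested. The median difference was 0.93 over tested members and 0.03 over all genes tested. A called difference of 2 or more in size was seen in 21 tested members (17 higher and 4 lower), which is 25.9%, against 13.7% of all genes tested. The adult samples all lay above the embryonic ones in 48 tested members and below them in 16, that is 59.3% and 19.8%, against 35.7% and 33.2% of all genes tested. These counts cover the members that passed the filter on low values, and no test of the list as a whole was made. The same shares over all genes tested are the background for the counts of smaller groups and marker lists below. With the median of each sample subtracted, the all-gene median fell by 0.18, and 43 members were called higher and 17 lower.

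Summed over all members, the level was 1837 ± 24 CPM in adult cortex (SD, n = 3) and 1129 ± 18 CPM in embryonic cortex (SD, n = 4). The adult samples had 1833, 1863 and 1815 CPM, all above the embryonic samples with 1122, 1146, 1108 and 1142 CPM. The 5 most abundant members of each stage held 50.5% of member reads in adult and 49.1% in embryonic cortex. In adult cortex Gpr26 alone held 15.4% of member reads, and in embryonic cortex Gpr56 held 13.2%. The labels do not say whether each sample came from a separate animal, so p-values reflect only the spread of these libraries, which may be technical. Of 8 markers of cortical neurons none was at 0, 4 were higher (Slc17a7, Rbfox1, Snap25 and Syt1), 3 were lower (Tbr1 and Neurod2 among them) and 1 was not called, and they summed to 5774 ± 184 CPM in adult and 1906 ± 57.6 CPM in embryonic cortex. Markers of astrocytes summed to 4937 ± 511 CPM in adult and 222 ± 5.48 CPM in embryonic cortex, and those of choroid plexus to 686 ± 75.4 CPM in adult and 2.72 ± 0.74 CPM in embryonic cortex, with all 8 of each list higher. Their part in the members' levels was not tested. In bulk tissue, a higher level from more cells of a type cannot be told apart from more RNA per cell.

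**Figure D1:**
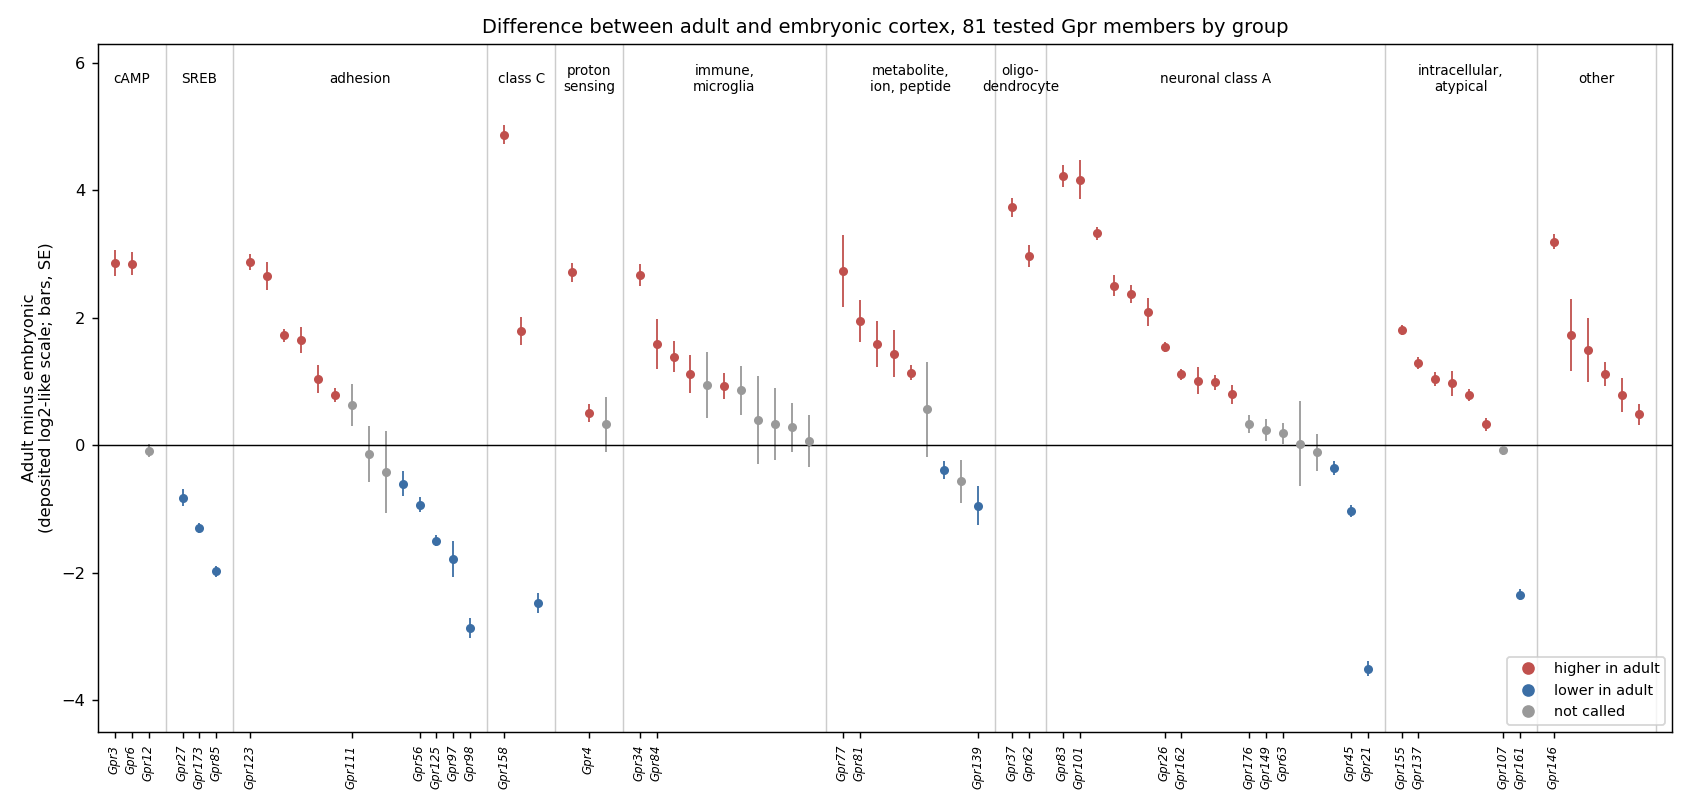
Difference between adult and embryonic cortex (adult minus embryonic, deposited log2-like scale) for the 81 tested members, grouped by receptor class or known role and sorted within each group, with names drawn for some of them; points are limma estimates and bars their SE. The 47 members called higher lie above 0 and the 15 called lower lie below it, with Gpr158 at 4.88 and Gpr21 at -3.51 as the extremes.

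Levels between genes were compared per kilobase of exonic length in the GENCODE annotation of GRCm38, which may differ from the gene models the authors counted. In adult cortex the order of mean level among the members named here was Gpr162 (54.4 ± 2.94 CPM per kb), Gpr26 (24.4 ± 0.45), Gpr158 (23.1 ± 2.5) and Gpr137 (23.1 ± 2.47), followed by Gpr56 (13.6 ± 1.99) and Gpr123 (12.7 ± 2.2). Gpr26, Gpr158 and Gpr137 did not differ from each other beyond their spread, nor did Gpr56 and Gpr123. In embryonic cortex the order was Gpr85 (31.1 ± 2.64 CPM per kb), Gpr56 (27.5 ± 3.27), Gpr162 (26.6 ± 2.4), Gpr21 (11 ± 1.43), Gpr137 (9.81 ± 0.472), Gpr161 (9.45 ± 0.589) and Gpr125 (9.22 ± 0.594). The first 3 overlapped with one another within their spread (mean ± SD), and so did the next 4. Gpr162, Gpr137 and Gpr56 were among these leading genes at both stages.

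**Figure D2:**
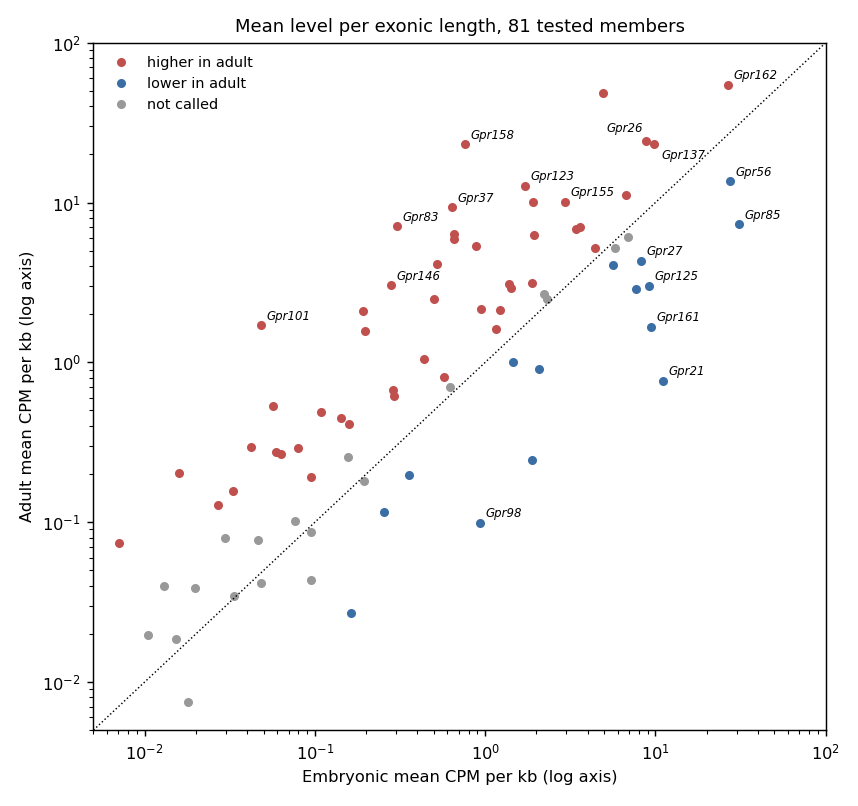
Mean level in adult cortex (vertical axis) against mean level in embryonic cortex (horizontal axis), both in CPM per kb on log axes, for the 81 tested members; the dotted line marks equal levels and colours mark the call. Gpr162 lies high on both axes, Gpr158 lies far above the line, and Gpr85, Gpr161, Gpr21 and Gpr98 lie below it.

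The class C members held the largest difference of the whole set. Gpr158, a receptor that recruits the Rgs7 and Gnb5 complex to the membrane and has been reported to respond to glycine, had 196, 166 and 205 CPM in the adult samples, against 5.48, 5.45, 5.18 and 8.78 CPM in the embryonic samples. The groups were far apart, and embryonic replicate 4 stood above the other embryonic samples. The mean was 30.4-fold higher in adult cortex, with a difference of 4.88 (SE 0.15) and a limma adjusted p of 2.93e-12. Its partners moved the same way: Rgs7 had 51.3 ± 4.15 CPM in adult and 14.5 ± 1.89 CPM in embryonic cortex (difference 1.85 ± 0.11 SE), and Gnb5, its obligate beta subunit, had 124 ± 2.65 CPM in adult and 28.7 ± 1.16 CPM in embryonic cortex (difference 2.16 ± 0.07 SE). Both passed the test. Gpr179, known from retinal bipolar cells, was also called higher, at 2.62 ± 0.733 CPM in adult and 0.567 ± 0.132 CPM in embryonic cortex.

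The sequence just upstream of the start is shown for 4 members with large changes and with 1 start each in the RefSeq promoter table (GRCm38.p6): Gpr158 and Gpr83, the 2 largest rises, and Gpr98 and Gpr85, which fell. Each stretch is the 150 bases before the start, 5′ to 3′ on the gene's strand, with CG dinucleotides in capitals. The positions are chr2:21367417-21367566, plus strand for Gpr158, chr9:14860060-14860209, plus strand for Gpr83, chr13:81633145-81633294, minus strand for Gpr98 (listed as Adgrv1) and chr6:13839943-13840092, minus strand for Gpr85.
Gpr158: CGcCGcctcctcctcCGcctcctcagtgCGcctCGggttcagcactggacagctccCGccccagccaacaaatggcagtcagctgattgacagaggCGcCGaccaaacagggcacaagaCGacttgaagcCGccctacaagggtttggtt
Gpr83: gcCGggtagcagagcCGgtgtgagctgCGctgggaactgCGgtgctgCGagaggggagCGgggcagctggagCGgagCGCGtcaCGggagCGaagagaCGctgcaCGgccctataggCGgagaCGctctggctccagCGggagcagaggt
Gpr98: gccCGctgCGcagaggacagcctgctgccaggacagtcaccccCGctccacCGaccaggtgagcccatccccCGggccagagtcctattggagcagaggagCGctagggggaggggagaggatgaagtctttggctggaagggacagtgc
Gpr85: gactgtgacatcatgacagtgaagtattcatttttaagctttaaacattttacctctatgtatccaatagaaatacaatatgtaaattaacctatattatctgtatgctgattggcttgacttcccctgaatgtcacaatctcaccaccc
These stretches hold 10, 16, 6 and 0 CG dinucleotides, in that order. The RefSeq table had a promoter for 67 of the 91 members. Over the 250 bases before the start, the median number of CG was 9 for the 34 members called higher, 8 for the 11 called lower and 3 for the 15 not called, against 6 over all 27025 genes of the table. The 2 called directions therefore lay close together in this feature.

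The neuronal class A receptors included 2 of the 4 largest rises, those of Gpr83 and Gpr101. Of 19 members, all tested, 11 were higher, 3 were lower and 5 were not called. These are 57.9% higher and 15.8% lower, against 35.8% and 33.9% of all genes tested. The class summed to 855 ± 7.46 CPM in adult and 345 ± 13.5 CPM in embryonic cortex. Gpr83, reported to bind the neuropeptide PEN cut from the precursor Pcsk1n, had 37.8, 27.8 and 43.3 CPM in adult samples, against 1.79, 1.86, 1.08 and 1.48 CPM in embryonic samples. It was 23.4-fold higher, with a difference of 4.23 (SE 0.17) and no overlap between the groups (limma adjusted p = 6.31e-11). Pcsk1n was itself higher, at 467 ± 61.7 CPM in adult and 68.3 ± 5.46 CPM in embryonic cortex (difference 2.84 ± 0.10 SE).

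Gpr101, an X-linked receptor whose duplication causes early gigantism in humans, had 8.86, 13.7 and 5.23 CPM in adult samples, against 0.271, 0.443, 0.141 and 0.185 CPM in embryonic samples. The adult samples spread widely, from adult replicate 2 at the top to adult replicate 3 at the bottom, and all lay above the embryonic ones, which had 3 to 10 reads each (difference 4.17 ± 0.30 SE, limma adjusted p = 2.23e-08). The summed level of 10 markers of thalamus, habenula and hypothalamus was likewise lowest in adult replicate 3, at 221, 224 and 138 CPM in the adult samples against 59, 65.8, 63.1 and 59.5 CPM in the embryonic samples, with 9 of the 10 called higher and none at 0 in either group. Their part in the level of Gpr101 was not tested. Gpr151, known for its expression in the habenula, had 1.44, 1.48 and 2.64 CPM in adult and 0.813, 0.753, 0.706 and 0.832 CPM in embryonic samples and was called higher, with adult replicate 3 at the top.

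Of 11 striatal markers, 9 were higher and 1 was lower, with none at 0, and their sum was 1013, 1119.8 and 1221 CPM in adult and 286, 285, 245 and 272 CPM in embryonic samples. Among them Drd1a was 39.4 ± 3.88 CPM in adult and 12.2 ± 1.28 CPM in embryonic cortex. Within the adult group the sum was highest in adult replicate 3. The part of striatal tissue in the members' levels was not tested.

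Gpr26 and Gpr162, the most abundant members in adult cortex by reads, had smaller rises. Gpr26, which signals through cAMP without a known ligand, had 276, 286 and 284 CPM in adult samples, against 105, 94.7, 94.9 and 114 CPM in embryonic samples (2.76-fold, difference 1.55 ± 0.08 SE). Gpr162, an orphan that is abundant in brain, had 196, 216 and 215 CPM in adult samples, against 101, 98.6, 115 and 93 CPM in embryonic samples (2.05-fold, difference 1.12 ± 0.09 SE). Neither showed overlap between the groups. Gpr61 and Gpr22 were also higher by 2 or more units, at 19.7 ± 1.27 and 46.2 ± 11.2 CPM in adult cortex, against 3.26 ± 0.976 and 8.75 ± 1.4 CPM in embryonic cortex. Gpr22 lies inside Cog5 on the opposite strand, and Cog5 had 19.6 ± 1.25 CPM in adult and 17 ± 1.34 CPM in embryonic cortex.

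**Figure D3:**
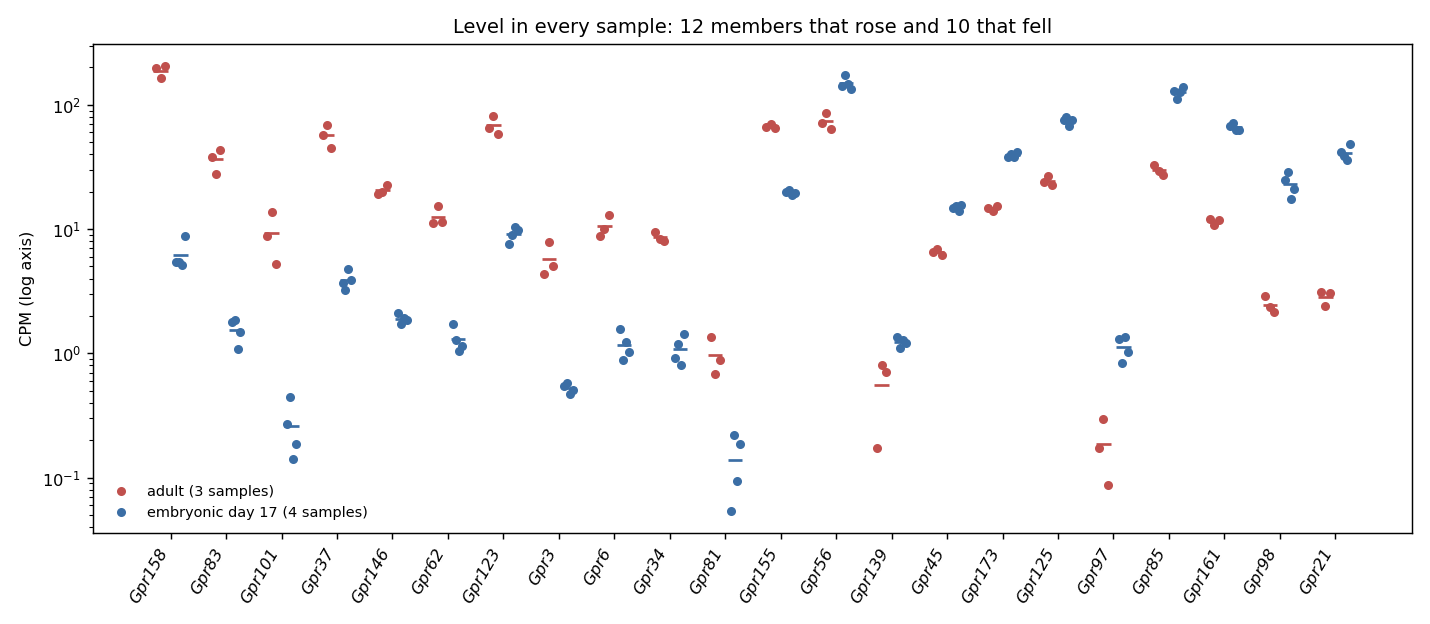
Level in every sample (CPM, log axis) of 12 members that rose (left) and 10 that fell (right), taken by size of difference from the called members that the text gives sample by sample and that had reads in every sample; points are samples, 3 adult and 4 embryonic for each gene, and lines are group means. Adult and embryonic points do not overlap for any gene shown, and the widest adult spread among the rises on this log axis is that of Gpr101, from 5.23 to 13.7 CPM.

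Gpr21 had the largest fall of the set. This class A receptor had 3.14, 2.41 and 3.04 CPM in adult samples, against 41.7, 38.5, 35.9 and 48.2 CPM in embryonic samples, with no overlap (14.3-fold lower in adult cortex, difference -3.51 ± 0.12 SE, limma adjusted p = 9.31e-12). Gpr21 lies within Rabgap1 on the same strand and within Strbp on the opposite strand, and 1.98% of its exonic length is shared with Rabgap1. Rabgap1 had 95.2 ± 1.44 CPM in adult and 156 ± 7.33 CPM in embryonic cortex and was called lower, with a difference of -0.62 (SE 0.07). Strbp had 281 ± 22.8 CPM in adult and 311 ± 24.8 CPM in embryonic cortex and was not called. The part of Rabgap1 reads in the level of Gpr21 was not tested. Gpr45, an orphan of neurons, fell to 6.55, 6.9 and 6.2 CPM in adult samples, against 14.7, 15.5, 14 and 15.5 CPM in embryonic samples (difference -1.03 ± 0.10 SE). Of the uncalled members of this class, Gpr63, reported as a receptor for sphingolipids, had 7.51, 6.31 and 5.54 CPM in adult and 5.48, 5.94, 4.66 and 7.95 CPM in embryonic samples. Gpr149, an orphan, had 2.75, 2.97 and 3.26 CPM in adult and 3.25, 2.13, 2.12 and 3.14 CPM in embryonic samples. Gpr176, known from the circadian clock of the hypothalamus, had 8.03, 12.7 and 10.8 CPM in adult and 9.38, 7.49, 8.56 and 9.01 CPM in embryonic samples. Differences of these 3 ran from 0.19 to 0.33 and the groups overlapped. Without adult replicate 1, Gpr176 passed the test with a difference of 0.50.

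The 3 members of the SREB family (super-conserved receptors expressed in brain) all fell. Gpr85, which is conserved almost unchanged among vertebrates, had 32.5, 29.4 and 27.3 CPM in adult samples, against 129, 112, 128 and 138 CPM in embryonic samples. It was the most abundant member per kilobase in embryonic cortex, and its adult samples lay far below (4.27-fold, difference -1.98 ± 0.09 SE, limma adjusted p = 1.46e-10). Gpr173 had 14.7, 13.9 and 15.4 CPM in adult samples, against 38.2, 40.1, 37.9 and 41.7 CPM in embryonic samples (difference -1.30 ± 0.08 SE). Gpr27 had 9.86, 13 and 8.18 CPM in adult samples, against 21.7, 18.2, 18 and 20.8 CPM in embryonic samples (difference -0.82 ± 0.14 SE). The adult samples lay below the embryonic ones for each of the 3, and the family summed to 54.8 ± 3.36 CPM in adult and 186 ± 12.5 CPM in embryonic cortex. All 3 calls stood under every alternative tried.

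The 3 constitutively active cAMP receptors split. Gpr3, Gpr6 and Gpr12 are close relatives that raise cAMP without an added ligand, and Gpr3 is known for holding the oocyte in meiotic arrest. Gpr3 had 4.36, 7.88 and 5.06 CPM in adult samples, against 0.542, 0.576, 0.471 and 0.508 CPM in embryonic samples, an 11-fold rise with a difference of 2.86 (SE 0.20) and a limma adjusted p of 1.86e-08. Gpr6, known from striatal neurons of the indirect pathway, had 8.81, 10.1 and 12.9 CPM in adult samples, against 1.57, 0.886, 1.22 and 1.02 CPM in embryonic samples (difference 2.85 ± 0.18 SE, limma adjusted p = 6.01e-09). The groups did not overlap for either gene, and the order of the adult samples for Gpr6 was that of the summed striatal markers given above, whose part was not tested. Gpr12 had 16.3, 15.3 and 14.1 CPM in adult samples, against 16.4, 15, 17.6 and 19.8 CPM in embryonic samples. Its groups overlapped and it was not called (difference -0.08 ± 0.11 SE, limma adjusted p = 0.498), though it passed as lower, at -0.27, after median centring. Per kilobase, Gpr12 (6.06 ± 0.439 CPM per kb) and Gpr6 (5.94 ± 1.18) did not differ beyond their spread in adult cortex, while in embryonic cortex Gpr12 (6.85 ± 0.814 CPM per kb) lay above Gpr6 (0.658 ± 0.168) and Gpr3 (0.192 ± 0.0165).

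The upstream sequences of this trio are shown because the genes are relatives with unlike changes and act through cAMP, whose response element is the palindrome TGACGTCA. Each stretch is the 150 bases before a RefSeq start (GRCm38.p6), 5′ to 3′, with the palindrome's left part TGACG on either strand in capitals (the full palindrome where both meet). The positions are chr10:41072291-41072440, minus strand for Gpr6, chr4:133212537-133212686, minus strand for Gpr3, and chr5:146584405-146584554, minus strand and chr5:146585240-146585389, minus strand for the 2 starts of Gpr12, numbered by coordinate.
Gpr6: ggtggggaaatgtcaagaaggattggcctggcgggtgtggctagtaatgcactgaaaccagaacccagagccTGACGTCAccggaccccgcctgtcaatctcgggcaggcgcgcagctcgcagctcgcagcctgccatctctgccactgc
Gpr3: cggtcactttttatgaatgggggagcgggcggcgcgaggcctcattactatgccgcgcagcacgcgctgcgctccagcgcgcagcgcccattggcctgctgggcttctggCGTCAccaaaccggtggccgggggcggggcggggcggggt
Gpr12 start 1: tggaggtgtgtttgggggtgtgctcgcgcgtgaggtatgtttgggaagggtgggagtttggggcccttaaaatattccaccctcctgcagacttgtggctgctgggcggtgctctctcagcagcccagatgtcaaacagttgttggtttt
Gpr12 start 2: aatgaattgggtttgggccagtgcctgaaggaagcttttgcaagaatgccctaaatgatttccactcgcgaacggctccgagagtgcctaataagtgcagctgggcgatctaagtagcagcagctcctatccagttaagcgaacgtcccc
The stretch of Gpr6 holds the full palindrome, that of Gpr3 holds TGACG on the opposite strand, and those of Gpr12 hold neither. In the 250 bases before the start, searched on both strands, the palindrome was found for Gpr6 alone among the 67 members with a promoter entry, and in 1.55% of all 32851 promoters of the table. TGACG, which the palindrome contains, was found for 17 of the 67 members and in 17.8% of all promoters. A member with several starts counted once if any of them matched, while both percentages are per promoter entry. The member counts and the percentages are therefore in unlike units. These are matches of letters, and no binding was measured here.

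Of the 18 adhesion receptors, 14 were tested, of which 6 were higher, 5 were lower and 3 were not called. These are 42.9% higher and 35.7% lower, near the 35.8% and 33.9% of all genes tested. Many adhesion receptors, though not all, carry long extracellular parts that bind matrix or neighbouring cells and are cut at a site next to the membrane. Gpr123 (now Adgra1), a brain member of the group, had 65.2, 81.7 and 58.7 CPM in adult samples, against 7.64, 8.9, 10.3 and 9.84 CPM in embryonic samples (7.47-fold, difference 2.88 ± 0.13 SE, limma adjusted p = 1.21e-10). Its relative Gpr125 (Adgra3) went the other way, with 23.9, 26.6 and 22.7 CPM in adult and 75.6, 79.5, 68 and 76 CPM in embryonic samples (difference -1.50 ± 0.09 SE). The third gene of this subfamily, Gpr124 (Adgra2), which with Reck is the Wnt7 co-receptor of brain vessel growth, had 17.7, 19 and 17.6 CPM in adult samples, against 11.1, 12.2, 10.3 and 9.61 CPM in embryonic samples (difference 0.79 ± 0.10 SE). None of these 3 showed overlap between the groups. Both Wnt7 genes fell. Wnt7b had 36.9 ± 4.32 CPM in adult and 160.4 ± 11.6 CPM in embryonic cortex. Wnt7a had 12.5 ± 4.48 CPM in adult and 35.3 ± 3.48 CPM in embryonic cortex. Reck was not called, at 11.8 ± 2.73 CPM in adult and 9.97 ± 1.15 CPM in embryonic cortex.

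Gpr98 (Adgrv1), a giant receptor of stereocilia and synapses whose loss causes Usher syndrome in humans, had 2.88, 2.37 and 2.16 CPM in adult samples, against 25, 28.8, 17.6 and 20.9 CPM in embryonic samples. It was 9.35-fold lower in adult cortex, with a difference of -2.87 (SE 0.16) and a limma adjusted p of 1.04e-09. Gpr97 (Adgrg3), known from granulocytes, was lower, at a low level, with 0.175, 0.297 and 0.088 CPM in adult samples, against 1.3, 0.842, 1.36 and 1.02 CPM in embryonic samples, which are 2 to 7 reads in adult and 19 to 29 in embryonic samples. Gpr133 (Adgrd1), Gpr116 (Adgrf5, of endothelium and lung), Gpr126 (Adgrg6, needed for myelination by Schwann cells) and Gpr115 were the other rises of the group. Gpr133 had 4.45 ± 1.17 CPM in adult and 0.469 ± 0.112 CPM in embryonic cortex, Gpr116 56.4 ± 5.61 CPM in adult and 17.5 ± 1.82 CPM in embryonic cortex, and Gpr126 3.55 ± 0.271 CPM in adult and 0.975 ± 0.323 CPM in embryonic cortex. Of 9 endothelial markers, 6 were higher and 1 was lower, none was at 0, and their sum was 357 ± 20.8 CPM in adult and 174 ± 12.6 CPM in embryonic cortex. Their part in the level of Gpr116 or Gpr124 was not tested. Gpr111 was not called, with 1.22, 0.551 and 0.748 CPM in adult and 0.651, 0.842, 0.282 and 0.277 CPM in embryonic samples, but passed as higher without embryonic replicate 2 (difference 0.84).

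Gpr56 (Adgrg1), the adhesion receptor whose loss causes polymicrogyria in humans and which binds collagen III and transglutaminase 2, was lower in adult cortex. It had 71.4, 85.2 and 63.9 CPM in adult samples, against 142, 174, 147 and 133 CPM in embryonic samples, with no overlap (2.03-fold lower, difference -0.93 ± 0.11 SE, limma adjusted p = 4.04e-06). Of its ligands, Col3a1 had 5.41 ± 0.42 CPM in adult and 2.78 ± 0.803 CPM in embryonic cortex, and Tgm2 had 15 ± 1.93 CPM in adult and 1.97 ± 0.247 CPM in embryonic cortex, and both were called higher. Of 10 markers of radial glia and progenitors, 9 were lower and none was at 0, with a sum of 151 ± 36.6 CPM in adult and 1711 ± 92.1 CPM in embryonic cortex. Their part in the falls of Gpr56, Gpr98, Gpr125 and Gpr161 was not tested.

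The exon table held 104 exons of 14 members, of which 103 exons of 13 members could be tested for a changed share of the gene's reads. Of these, 5 exons were called (4.85%, against 4.86% of all 86181 exons tested), a share near the background, and 3 of the 13 genes passed at the gene level (Simes test), against 28.8% of all 7271 genes tested. These were Gpr56, Gpr85 and Gpr89. The called exon with the largest deposited difference was the second of the 15 Gpr56 exons in the table by start, on chromosome 8 at 97508299 (mm9). It took 1.47%, 1.39% and 0.96% of the gene's reads in the adult samples, against 0.11%, 0.025%, 0.096% and 0.035% in the embryonic samples. The mean share was 1.27 ± 0.27% in adult (SD, n = 3) and 0.068 ± 0.044% in embryonic cortex (SD, n = 4), with no overlap (limma diffSplice, adjusted p = 3.41e-14). The exon reads behind these shares were few, an estimated 14 to 28 in adult samples and 1 to 3 in embryonic samples. How the deposited score treats an exon without reads is not stated, so an estimate of 1 read may stand for none. The call was kept in every alternative tried. The gene as a whole was lower in adult cortex while this exon's own reads were higher there.

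The RefSeq table lists 2 starts for this gene, 7290 bases apart on GRCm38, and the first 2 exon starts in the exon table are also 7290 bases apart on mm9. No coordinates were converted between the builds. The sequence before each start is shown because the exon that gained share lies, by this spacing, at the second start, again as 150 bases, 5′ to 3′, with CG in capitals. The positions on GRCm38.p6 are chr8:94976959-94977108, plus strand and chr8:94984249-94984398, plus strand.
Gpr56 start 1: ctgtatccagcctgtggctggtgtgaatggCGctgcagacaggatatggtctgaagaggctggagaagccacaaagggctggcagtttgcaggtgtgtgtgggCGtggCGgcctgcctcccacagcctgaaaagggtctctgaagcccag
Gpr56 start 2: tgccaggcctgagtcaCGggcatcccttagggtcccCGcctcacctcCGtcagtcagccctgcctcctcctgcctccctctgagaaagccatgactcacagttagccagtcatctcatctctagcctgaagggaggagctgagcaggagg
Each stretch holds 3 CG dinucleotides. The exon at the first start, on chromosome 8 at 97501009 (mm9), was not called. It held a mean share of 0.099 ± 0.038% in adult and 0.033 ± 0.0054% in embryonic cortex. That was an estimated 1 or 2 reads per sample, where 1 may stand for none. The exons at these 2 starts held little of the gene's reads at either stage. Which start was most used was not tested.

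**Figure D4:**
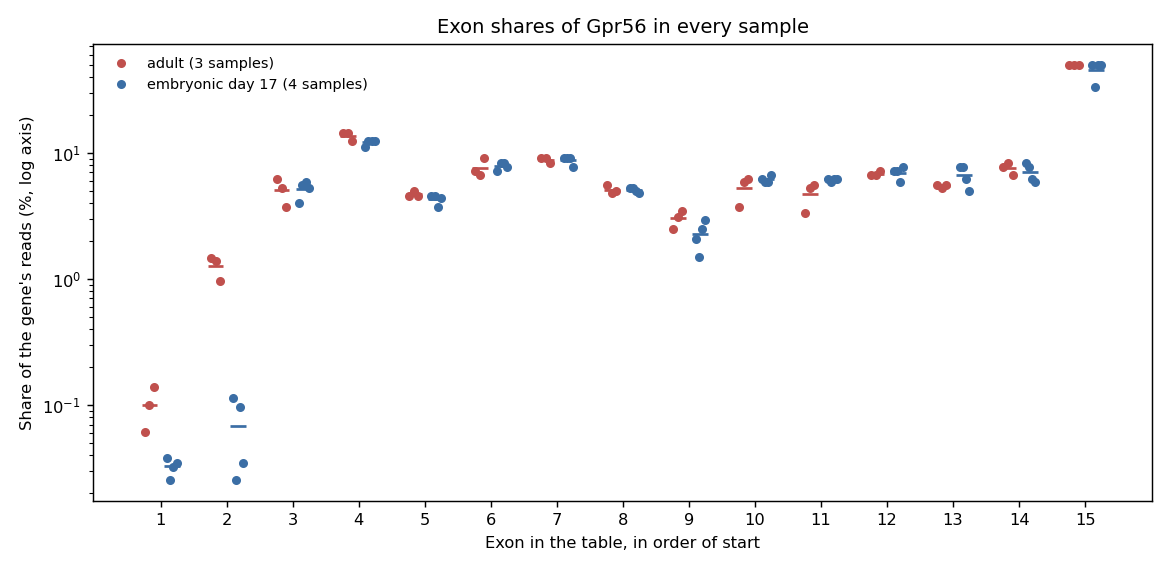
Share of the reads of Gpr56 (percent, log axis) taken by each of its 15 exons in the table, in order of start, in the 3 adult and 4 embryonic samples; points are samples and lines group means. At exon 2 the adult samples lie between 0.96% and 1.47% and the embryonic samples between 0.025% and 0.11%, and of the other exons, exons 1 and 11 also show no overlap between the groups.

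The remaining 4 called exons had smaller differences in the deposited score, though not always in percent of reads. The exon of Gpr56 on chromosome 8 at 97532271 (mm9) held 4.72 ± 1.21% in adult and 6.16 ± 0.18% in embryonic cortex. That call was lost without adult replicate 1 (adjusted p = 0.292). In Gpr85, the exon on chromosome 6 at 13789642 (mm9) held 1.72 ± 0.56% in adult and 3.63 ± 0.66% in embryonic cortex, without overlap, and the exon at 13787999 held 2.08 ± 0.64% in adult and 1.25 ± 0.19% in embryonic cortex, with overlap. In Gpr89, which encodes a Golgi pH regulator, the exon on chromosome 3 at 96676400 (mm9) held 4.79 ± 1.61% in adult and 1.49 ± 1.17% in embryonic cortex, with overlap. That call was lost without adult replicate 3 (adjusted p = 0.0526) and without embryonic replicate 4 (adjusted p = 0.0868). All adjusted p-values for exons are from limma diffSplice.

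Among 9 intracellular and atypical proteins, 8 were tested, of which 6 were higher, Gpr161 was lower and Gpr107 was not called. These are 75.0% higher and 12.5% lower, against 35.8% and 33.9% of all genes tested. Gpr161, a receptor of the primary cilium that keeps hedgehog signalling off by raising cAMP, had 12.1, 10.8 and 11.8 CPM in adult samples, against 67.1, 71, 62.7 and 62.4 CPM in embryonic samples. It was 5.67-fold lower in adult cortex, with a difference of -2.34 (SE 0.08) and a limma adjusted p of 1.79e-11. Gpr155, a lysosomal cholesterol sensor, had 66, 70.7 and 65.5 CPM in adult samples, against 19.95, 20.6, 18.9 and 19.7 CPM in embryonic samples (difference 1.81 ± 0.08 SE). Gpr137, another lysosomal protein, had 80.2, 85.7 and 69.2 CPM in adult samples, against 32.6, 35.1, 34 and 31.5 CPM in embryonic samples (difference 1.29 ± 0.09 SE), and 15.4% of its exonic length is shared with Bad on the opposite strand. Gpr107, a Golgi protein, had 63.2, 68.5 and 66.1 CPM in adult samples, against 69.4, 76.3, 78.2 and 70.4 CPM in embryonic samples (difference -0.07 ± 0.08 SE). Its groups were close and it was not called, but it passed as lower, at -0.25, after median centring. Gpr108, Gpr157, Gpr180 and Gpr89 were higher by 0.33 to 1.04 units, and Gpr89, which shares 27.9% of its exonic length with Pdzk1 and Gja5 on the opposite strand, did not pass after median centring (difference 0.15).

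Both members known from oligodendrocytes rose. Gpr37, a receptor of myelinating oligodendrocytes reported to respond to prosaposin, had 56.9, 68.6 and 44.9 CPM in adult samples, against 3.69, 3.23, 4.75 and 3.88 CPM in embryonic samples (14.6-fold, difference 3.73 ± 0.15 SE, limma adjusted p = 4.56e-11). Gpr62, found in mature oligodendrocytes, had 11.1, 15.2 and 11.5 CPM in adult samples, against 1.73, 1.28, 1.04 and 1.16 CPM in embryonic samples (difference 2.97 ± 0.17 SE, limma adjusted p = 2.01e-09). Both were highest in adult replicate 2, and the groups did not overlap. Of 12 oligodendrocyte markers, 11 were tested and all 11 were higher, and Opalin was at 0 in every embryonic sample. Their sums were 5599, 8012 and 4466 CPM in adult samples, against 63.7, 67.6, 70.2 and 67.5 CPM in embryonic samples. The marker sum was highest in adult replicate 2 as well, and its part in the 2 receptors' levels was not tested. Psap, which encodes prosaposin, had 1608 ± 103 CPM in adult and 443 ± 34.5 CPM in embryonic cortex and was called higher (difference 1.94 ± 0.08 SE).

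The 13 members known from immune cells and microglia were mostly at low levels. Of 11 tested, 5 were higher, none was lower and 6 were not called. The share higher was 45.5%, against 35.8% of all genes tested, of which 33.9% were lower. Gpr34, the lysophosphatidylserine receptor of microglia, had 9.47, 8.35 and 8.05 CPM in adult samples, against 0.922, 1.2, 0.7999 and 1.43 CPM in embryonic samples (7.93-fold, difference 2.67 ± 0.17 SE, limma adjusted p = 6.28e-09). Gpr84, a receptor of activated microglia and macrophages, had 1.09, 0.424 and 1.01 CPM in adult samples, against 0.108, 0.266, 0.329 and 0.0462 CPM in embryonic samples, that is 10 to 25 reads in adult and 1 to 7 reads in embryonic samples (difference 1.59 ± 0.40 SE). The adult samples lay above the embryonic ones for both genes. Gpr34 lies inside Cask on the opposite strand. An antisense gene covers 39.5% of the exonic length of Gpr84, and 41.6% of that of Gpr25 (higher, 3.15 ± 0.893 CPM in adult and 1.53 ± 0.343 CPM in embryonic cortex), and since no source says that counting was by strand, those reads cannot be told apart. Gpr183, the oxysterol receptor that guides lymphocytes, was called higher, at 1.19 ± 0.389 CPM in adult and 0.457 ± 0.209 CPM in embryonic cortex. The enzymes that make its ligand, Ch25h and Cyp7b1, were both higher, at 0.537 ± 0.331 and 8.85 ± 0.417 CPM in adult cortex, against 0.0577 ± 0.0449 and 1.7 ± 0.486 CPM in embryonic cortex.

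All 15 microglial markers were higher in adult cortex and none was at 0. They summed to 481, 489 and 484 CPM in adult samples, against 49.7, 55.2, 50.4 and 47.1 CPM in embryonic samples, and their part in the levels of Gpr34, Gpr84 and Gpr183 was not tested. Of 8 markers of blood immune cells, 4 had enough reads to test, and among the others Cd3e, Cd3g and Ly6g were at 0 in every embryonic sample and at 1 to 4, 0 to 6 and 0 to 1 reads in adult samples. Of the 4 tested, S100a8 and S100a9 were higher, Lck was lower and Cd79a was not called. The sum of the list was 2.96 ± 0.904 CPM in adult and 4.73 ± 1.23 CPM in embryonic cortex, where Lck alone had 4.38 ± 1.11 CPM. No marker of the list was called higher with no trend or with the stricter filter, and 1 was called higher when adult replicate 1, adult replicate 3, embryonic replicate 2 or embryonic replicate 4 was left out.

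**Figure D5:**
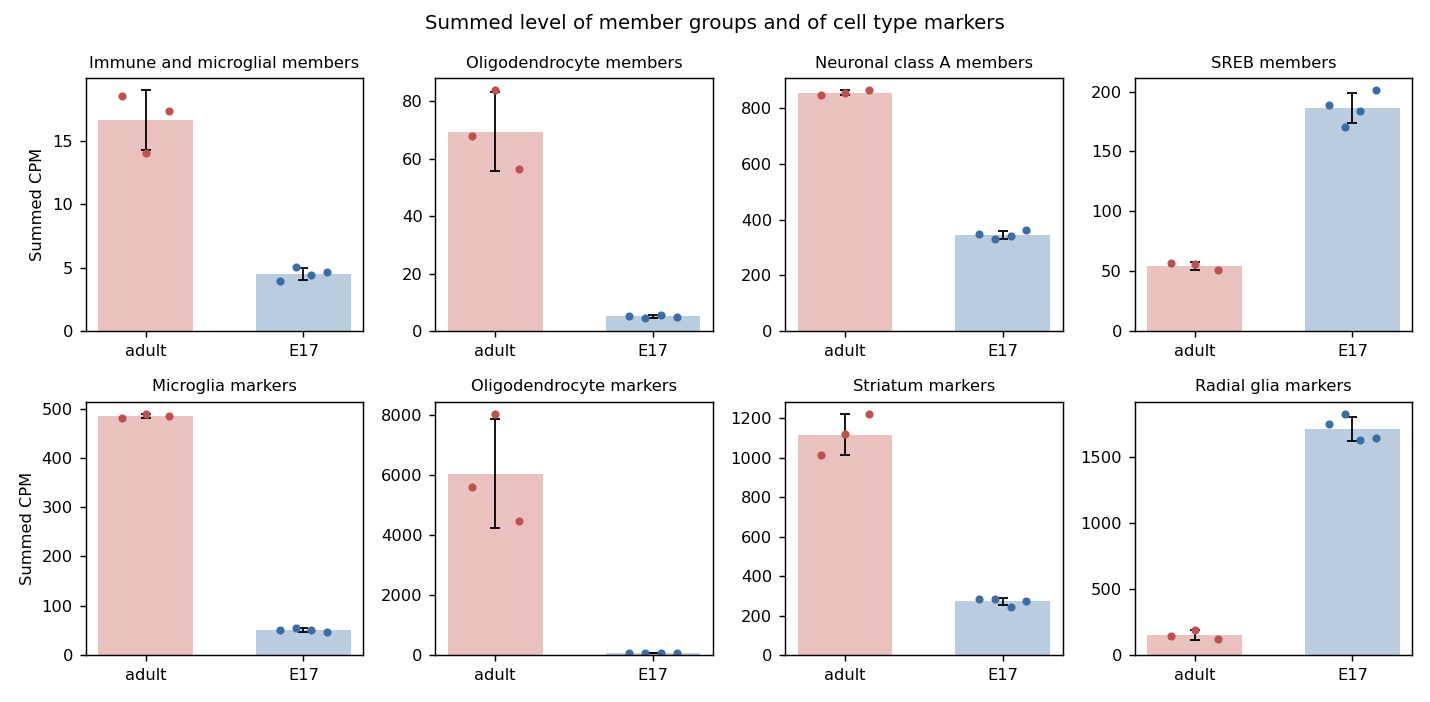
Summed CPM of 4 groups of members (top row) and of 4 lists of cell type markers (bottom row) in adult and embryonic (E17) cortex; bars are means, whiskers SD and points samples (3 adult, 4 embryonic). The oligodendrocyte members and the oligodendrocyte markers are both highest in adult replicate 2, the middle adult point, and the SREB members and radial glia markers are lower in adult than in embryonic cortex.

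Of the 4 proton-sensing receptors, which couple a fall in extracellular pH to G proteins, 3 were tested. Gpr4, a receptor of endothelium, had 4.58, 4.11 and 5.37 CPM in adult samples, against 2.98, 3.19, 3.91 and 3.28 CPM in embryonic samples (difference 0.51 ± 0.14 SE). That call did not survive median centring (0.33) or quantile normalization (0.19). Gpr65 was not called, at 0.16 ± 0.111 CPM in adult and 0.0961 ± 0.0397 CPM in embryonic cortex, and Gpr132 was not tested.

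Among 11 receptors of metabolites, ions and peptides, 9 were tested, of which 5 were higher, 2 were lower and 2 were not called. These are 55.6% higher and 22.2% lower, against 35.8% and 33.9% of all genes tested. Gpr77 (now C5ar2, a receptor of complement C5a) had 0.96, 0.424 and 0.792 CPM in adult samples, against 0, 0.133, 0.0941 and 0 CPM in embryonic samples, that is 10 to 22 reads in adult and 0 to 3 reads in embryonic samples (difference 2.73 ± 0.57 SE). Gpr81 (now Hcar1), the lactate receptor, had 1.35, 0.678 and 0.88 CPM in adult samples, against 0.0542, 0.221, 0.0941 and 0.185 CPM in embryonic samples (difference 1.95 ± 0.33 SE). The groups did not overlap for either, and Gpr77 was without reads in 2 embryonic samples. Gpr1, a chemerin receptor, rose to 0.39 ± 0.0429 CPM in adult, against 0.0826 ± 0.0683 CPM in embryonic cortex, and Rarres2, which encodes chemerin, had 2.46 ± 0.362 CPM in adult and 0.196 ± 0.155 CPM in embryonic cortex (difference 3.19 ± 0.56 SE). Gpr39, the zinc receptor, had 0.807 ± 0.118 CPM in adult and 0.19 ± 0.13 CPM in embryonic cortex, and 39.9% of its exonic length is shared with Lypd1 on the opposite strand, which had 59.5 ± 3.63 CPM in adult and 13.8 ± 0.386 CPM in embryonic cortex. Gpr139, a receptor of aromatic amino acids, had 0.175, 0.805 and 0.704 CPM in adult samples, against 1.36, 1.11, 1.27 and 1.2 CPM in embryonic samples (difference -0.95 ± 0.31 SE). Its call as lower was lost without adult replicate 1, which had the lowest level (difference -0.48), and with no filter on low values. Gpr30 (now Gper1), reported as a membrane oestrogen receptor, was lower by a small step, at 2.54 ± 0.158 CPM in adult and 3.67 ± 0.408 CPM in embryonic cortex. That call was also lost without adult replicate 1, adult replicate 3, embryonic replicate 2 or embryonic replicate 3 (differences from -0.37 to -0.33).

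All 6 members outside these groups were called higher, and the calls of Gpr182 and Gpr20 were among those lost without adult replicate 1. Gpr146, known from liver as a regulator of plasma lipids, had 19.3, 19.8 and 22.8 CPM in adult samples, against 2.11, 1.73, 1.93 and 1.85 CPM in embryonic samples, a 10.8-fold rise (difference 3.20 ± 0.12 SE, limma adjusted p = 2.80e-11). The 3 adult samples lay close together and the 4 embryonic samples closer still. Gpr165 had 9.85 ± 3.41 CPM in adult and 4.29 ± 0.475 CPM in embryonic cortex.

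Genes that act beside the receptors moved with unlike shares. Of 20 RGS proteins, 15 were higher and 2 were lower, with a median difference of 1.60, and of 20 adenylyl cyclases and cAMP phosphodiesterases, 17 were higher and 2 were lower, with a median of 1.87. Both medians stand beside 0.03 over all genes tested. Rgs14 had 44.2 ± 1.69 CPM in adult and 0.791 ± 0.212 CPM in embryonic cortex, and Rgs7bp, the membrane anchor of the Rgs7 complex, had 264 ± 31.8 CPM in adult and 19.8 ± 2.52 CPM in embryonic cortex. Pde8b had 90.4 ± 5.53 CPM in adult and 8.8 ± 0.84 CPM in embryonic cortex, while Adcy6 fell to 62.6 ± 6.04 CPM in adult, against 103 ± 6.6 CPM in embryonic cortex. Pde7b was higher, at 57.6 ± 8.6 CPM in adult and 6.92 ± 0.383 CPM in embryonic cortex. Pde7a (difference -2.02) and Rgs9bp (difference -2.46) were lower, and so was Rgs12, at 50.9 ± 0.131 CPM in adult and 109 ± 9.15 CPM in embryonic cortex. Of 15 alpha subunits, 7 were higher (46.7%) and 2 were lower (13.3%), with a median difference of -0.07. Gna15, a subunit of blood cells, had 1.96 ± 0.215 CPM in adult and 0.251 ± 0.0804 CPM in embryonic cortex. Gnai1, an inhibitory subunit, had 171 ± 6.06 CPM in adult and 95.5 ± 4.21 CPM in embryonic cortex, while its relative Gnai3 had 32.4 ± 3.07 CPM in adult and 127 ± 9.5 CPM in embryonic cortex and was called lower, as was Gnaq, which activates phospholipase C (difference -0.41). With median centring or quantile normalization, 5 alpha subunits were called lower, and 4 without adult replicate 2.

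Of 16 beta and gamma subunits, 9 were higher and 5 were lower (median difference 0.69). These are 56.2% higher and 31.2% lower, against 35.8% and 33.9% of all genes tested. Gng13 had 12.5 ± 0.194 CPM in adult and 0.128 ± 0.0554 CPM in embryonic cortex. Gng2 had 161 ± 24.9 CPM in adult and 709 ± 58.9 CPM in embryonic cortex. Gngt2 was also higher (difference 2.47) and Gnb4 lower (difference -0.85). Of 8 receptor kinases and arrestins, 4 were higher and 2 were lower (median difference 0.30), where Adrbk1, the main receptor kinase of brain, had 219 ± 13.7 CPM in adult and 108 ± 3.63 CPM in embryonic cortex and Arrb1 had 374 ± 23 CPM in adult and 188 ± 7.21 CPM in embryonic cortex. Grk6 was lower (difference -0.24). The other gene counted as lower was Grk1, the kinase of rod photoreceptors, with no reads in adult samples and 3 to 4 reads in embryonic samples, which passed the filter on low values through the embryonic samples alone, and its call rests on those few reads. Without embryonic replicate 2, without adult replicate 1 or with the stricter filter, 1 of these kinases and arrestins was lower. Among the 17 tested ligands and partners of members, 11 were higher (64.7%) and 4 were lower (23.5%), with a median difference of 0.96. Several of these genes stand beside their receptors above. The lists share Rgs7 and Gnb5.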

How the data were processed

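Cerebral cortex mRNA was sequenced in 3 young adult and 4 embryonic samples, per the labels. The submitters' processing notes name the mm9 build and, without role, HTSeq 0.5.3p3, TopHat 1.0.13, SAMtools 0.1.7a, CASAVA 1.7.1 and Bowtie 0.12.7.0. The gene values deposited by the authors are variance-stabilized on a log2-like scale, and their exon values are a score deposited as 1 over a ratio, which steps with gene reads over exon reads, so that shares are 100 over that whole number. Each gene column is a smooth function of whole numbers, from which read counts and CPM were recovered (within 0.1 of a whole number), for levels only.

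Deposited values were fitted with limma 3.58.1 in R 4.3.3 (trend, no covariate, 7 samples). A gene entered with at most 3 of 7 samples at the column's lowest value, so a gene without reads in all 3 adult samples could enter and one without reads in all 4 embryonic samples could not. P-values were adjusted over 22828 genes. Exons were tested with diffSplice. Pairs of samples within a group gave chi-square statistics of 4.83 to 17.7 times their degrees of freedom, so no pair was counted as 1 library. In simulated data with 22828 genes, of which 200 were changed, 66.7% of 2-fold and 81.5% of 4-fold changes were called. The simulated spread between replicates was a fixed setting, and 15916 genes were called in the real data. These rates are therefore not the sensitivity of the real comparison. Symbols were matched for 90 of 91 members, 22 under an older name. Promoters came from RefSeq. Named members were the largest changes overall and by role, the most abundant, and the most abundant uncalled. Some members and markers are not reported here by name. The members and lists were chosen with earlier results of these data known. Alternatives were no filter, a stricter filter, median centring, quantile normalization, no trend, voom on recovered reads, a replicate block and leaving out each sample. Counting error at these depths limits genes with few reads.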

Additional observations from a re-analysis of the deposited data

Results flagged for a closer look

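In 35 of the 39 members chosen by the rule for members given in every sample, the highest and lowest embryonic samples were compared with the nearest other embryonic sample, and 1 member had a sample standing apart. The adult groups of 3 were not examined. Chance alone marks about 1 in 20 groups. Gpr158 had 8.78 CPM in embryonic replicate 4, against 5.18 to 5.48 CPM in the other 3 embryonic samples, and all of these lay far below the adult samples.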

How the results depend on the processing

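Of the 62 called members, 53 kept their call and direction under every alternative that tested them and 9 lost the call under at least 1. The stricter filter left out 9 of the 81 tested members, 3 of them called, of which Gpr77 is among the 53. The lost calls included Gpr4, Gpr20, Gpr30, Gpr64, Gpr89, Gpr139, Gpr160 and Gpr182. No difference of a member reversed where it was called. Of the 19 uncalled members, 6 were called under some setting (Gpr12, Gpr44, Gpr107, Gpr111, Gpr174 and Gpr176). Leaving out 1 sample gave 45 to 48 members higher and 13 to 15 lower. Centring moved the median of all genes by -0.18 and quantile normalization by -0.16. The share of calls that were higher was 51.4% over all genes, 43.6% after centring and 44.6% after quantile normalization, and among members 75.8%, 71.7% and 73.3%.

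Samples with the same number did not deviate together (correlations of 0.0088, 0.0567 and 0.0405), so the numbers were not taken as pairs. With the replicate block, 47 members were higher, 14 were lower (Gpr64 was lost) and 3 member exons were called in place of 5 (those of Gpr89 and of Gpr56 at 97532271 were lost), and the cause was not tested. Called member exons ranged from 4 to 8 and all called exons from 2757 (without adult replicate 2) to 6799 (without adult replicate 3) when 1 sample was left out, against 4185, with 8 member exons without adult replicate 3. Low read numbers limit the rest: 45 of the 81 tested members, and 40 of the 62 called, had at least 20 reads in every sample.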
